A study of Mus musculus with 12 samples.

Results

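The genes described here encode the secreted Wnt proteins, their receptors at the cell surface, the secreted proteins that hold them back, and the first and last intracellular steps of the pathway. They were selected from the table by their symbols, as every gene named Wnt, Fzd, Sfrp, Dkk, Rspo or Axin with a number, Lgr4 to Lgr6, Lrp5, Lrp6, Wif1, Sost, Tcf7, Tcf7l1, Tcf7l2 and Lef1, and 50 of the 22317 symbols in the count table matched. By role, 17 were ligands, 10 were frizzled receptors, 2 were co-receptors, 7 were R-spondins and their Lgr receptors, 8 were secreted antagonists and 6 were intracellular.

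The study asked how an ischemic injury of the brain affects the skull above it, and how an injury of the skull affects the brain. Wild-type male BALB/c mice, 8 weeks old, received Rose Bengal and local laser light, which clots small vessels (photothrombosis). Poly(A) RNA was sequenced in 4 groups of 3 libraries: SB2 and SB4 are labelled as brain cortex on day 2 and day 4 after skull injury, and BS2 and BS6 as interparietal bone on day 2 and day 6 after brain injury. Every mouse in these groups was injured, in the tissue opposite to the labelled one, and neither uninjured controls nor the injured tissues themselves were analysed here.

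In canonical signalling, a Wnt ligand joins a frizzled receptor to Lrp5 or Lrp6, the Axin-based complex that degrades beta-catenin is switched off, and beta-catenin then acts on target genes through the TCF/LEF proteins. R-spondins bound to Lgr receptors keep frizzleds at the membrane, Sfrp proteins and Wif1 bind the ligands, and Dkk proteins and sclerostin, the product of Sost, bind the co-receptors. In bone the pathway is known for driving osteoblasts, the cells that lay down matrix, and in the brain for axon guidance, synapses and the blood vessels of the blood-brain barrier.

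The labels of 2 groups went against the tissue that their RNA showed. The summed level of 8 neuronal markers was 26.2 to 55.1 CPM, the count scaled to library size, in the libraries labelled SB2, which should be brain, against 8218 to 8599 CPM in SB4. In the libraries labelled BS2, which should be bone, it was 7820 to 7989 CPM, against 34.0 to 114 CPM in BS6. Osteoblast markers ran the other way, with 5 of 7 in the table and sums of 36705 to 41786 CPM in SB2 and 19058 to 79190 CPM in BS6, but 21.1 to 23.0 CPM in SB4 and 21.5 to 31.9 CPM in BS2. The codes SB2, SB4, BS2 and BS6 are therefore used below as names of the labelled groups only, and in the comparisons of SB4 with SB2 and of BS6 with BS2 the day and the tissue content cannot be told apart. Library totals were 14126082 to 18972654 counts, so that 3 counts stood for 0.163 to 0.218 CPM.

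Within BS6, replicate 2 stood apart. Its markers of the bone marrow neutrophil lineage, 4 of 6 in the table, summed to 15372 CPM, against 923 and 2328 CPM in the other BS6 libraries, and its osteoblast sum was the lowest of the group. Replicate 3 of SB2 held less skeletal muscle RNA than the other SB2 libraries, with a sum over 4 of 5 markers of 196 CPM against 1355 and 1562 CPM.

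Most of the members called by day followed this division. Wnt10b, Lrp5, Sfrp4 and Wif1 were among those high in SB2 and BS6 and low in SB4 and BS2, and Fzd3, Wnt7a, Wnt10a and Rspo1 were among a smaller number high in SB4 and BS2 and low in the others. A gene was called where its edgeR quasi-likelihood test gave a Benjamini-Hochberg adjusted p under 0.05 over all genes tested and its log2 fold change exceeded 1 in size. In SB4 against SB2, 48 members had enough counts to be tested, 8 were higher in SB4 and 25 lower. Over all 17293 genes tested 56.4% were called, 27.8% higher and 28.6% lower. In BS6 against BS2, 47 members were tested, 25 were higher in BS6 and 10 lower, against 55.5% of all 17311 genes called, 29% higher and 26.5% lower. The adjusted p alone was under 0.05, with a smaller fold, for 13 further members in SB4 against SB2 and 2 in BS6 against BS2. Over all genes this held for 4652 of 17293 and 3371 of 17311. With the called genes included, 83.3% and 75% of all genes passed the adjusted p. Groups whose ranges did not overlap are pointed out below gene by gene, and were the rule over all genes tested as well, at 85.5% in SB4 against SB2 and 80.8% in BS6 against BS2. The median log2 fold change of the tested members was -1.28 in SB4 against SB2, where that of all genes was -0.01, and 1.09 in BS6 against BS2, where that of all genes was 0.02. In bulk RNA, fewer cells of a type and less RNA per cell cannot be told apart.

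**Figure D1:**
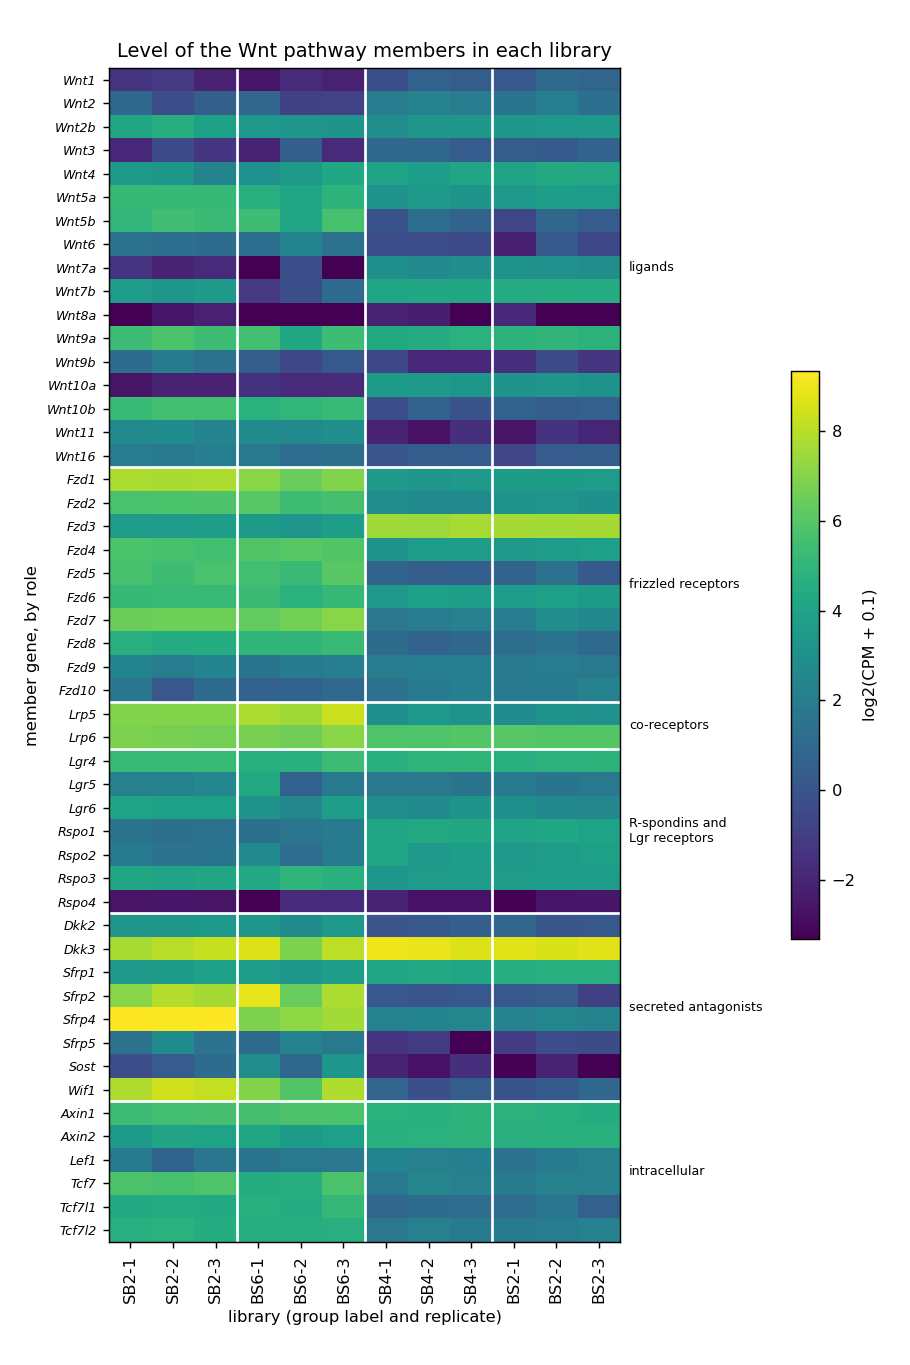
Level of each of the 50 members (rows, ordered by role) in each of the 12 libraries (columns, labelled by group and replicate), as log2(CPM + 0.1), brighter being higher. The left 6 columns (SB2 and BS6) share a pattern that differs from the one shared by the right 6 (SB4 and BS2), with Sfrp2, Sfrp4 and Wif1 bright only on the left and Fzd3, Wnt7a and Wnt10a brighter on the right.

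Of the 50 members, 30 were called in both comparisons, 3 in SB4 against SB2 alone, 5 in BS6 against BS2 alone and 12 in neither. All 30 moved in opposite directions: 23 were higher in SB2 and in BS6, and 7 (Rspo1, Rspo2, Fzd3, Wnt1, Wnt2, Wnt7a and Wnt10a) were higher in SB4 and in BS2. These comparisons share no library, but SB4 against SB2 sets brain over bone transcripts, and BS6 against BS2 sets bone over brain transcripts. Any gene that differs between brain and bone RNA can thus move in opposite directions in them, so this direction is not particular to the members. How many of all genes were called in both, or in opposite directions, was not counted. In the single comparisons 56.4% and 55.5% of all genes were called. In a single fit of all 12 libraries the 2 changes differed for 45 of the 48 members tested, beside 84.9% of all genes tested. That contrast sets SB4 and BS2 together against SB2 and BS6, so any gene that differs between brain and bone RNA can pass it. Rspo4 and Wnt8a, at or below 0.191 CPM and 0.177 CPM in every library, had too few counts to be tested in any of the comparisons.

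**Figure D2:**
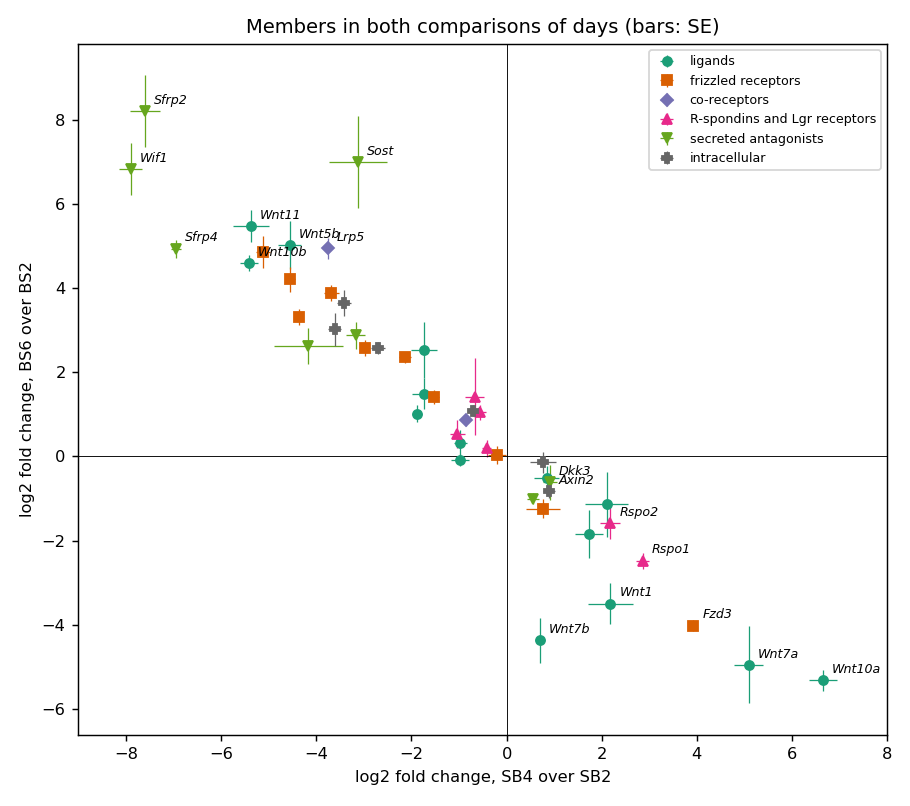
Log2 fold change of each member tested in both comparisons, SB4 over SB2 on the horizontal and BS6 over BS2 on the vertical axis, with standard errors as bars and symbols by role. Points lie mainly from the upper left, where Sfrp2 and Wif1 stand, to the lower right, where Wnt10a and Wnt7a stand.

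The ligands were called in both directions. So were all genes tested, with 27.8% higher and 28.6% lower in SB4 against SB2, and 29% higher and 26.5% lower in BS6 against BS2. The counts by role here and below stand beside these shares. In SB4 against SB2, 16 of the 17 were tested, 5 were higher in SB4 (Wnt1, Wnt2, Wnt3, Wnt7a and Wnt10a) and 7 lower (Wnt5a, Wnt5b, Wnt6, Wnt9b, Wnt10b, Wnt11 and Wnt16). In BS6 against BS2, 15 were tested, 6 were higher in BS6 (Wnt5a, Wnt5b, Wnt6, Wnt10b, Wnt11 and Wnt16) and 5 lower (Wnt1, Wnt2, Wnt7a, Wnt7b and Wnt10a).

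Wnt10b, a canonical ligand known for raising bone formation (chr15:98770712-98778150, minus strand, GRCm38), had 37.9, 47.5 and 45.4 CPM in SB2 and 26.8, 32.5 and 37.9 CPM in BS6. It had 0.709, 1.41 and 0.836 CPM in SB4 and 1.47, 1.22 and 1.38 CPM in BS2. All 6 libraries of SB2 and BS6 lay above all 6 of SB4 and BS2. The log2 fold change was -5.42 (SE 0.19, edgeR adjusted p = 2.31e-10) in SB4 against SB2 and 4.61 (SE 0.20, edgeR adjusted p = 6.98e-06) in BS6 against BS2.

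Wnt5b, a ligand of the non-canonical branch known from cartilage (chr6:119432531-119544347, minus strand), had 32.1, 43.8 and 39.0 CPM in SB2 and 42.2, 17.0 and 49.8 CPM in BS6. Its levels were 0.851, 2.28 and 1.56 CPM in SB4 and 0.531, 1.73 and 1.16 CPM in BS2. The low BS6 value was that of replicate 2, and still stood above every SB4 and BS2 library. The log2 fold change was -4.56 (SE 0.24, edgeR adjusted p = 9.56e-08) in SB4 against SB2 and 5.03 (SE 0.58, edgeR adjusted p = 0.000307) in BS6 against BS2. Wnt5b shares its span with Fbxl14 on the other strand, and no source used here states whether reads were counted by strand. Wnt5a, the ligand of planar cell polarity and limb outgrowth, had 35.6, 35.7 and 35.7 CPM in SB2, 25.4, 17.8 and 29.3 CPM in BS6, 8.58, 11.1 and 9.13 CPM in SB4 and 10.5, 13.6 and 12.5 CPM in BS2. Its groups did not overlap across the division, but its fold in BS6 against BS2 was small (log2 1.02, SE 0.21, edgeR adjusted p = 0.00412) and fell to between 0.87 and 0.99 without BS2 replicate 1, BS6 replicate 1 or BS6 replicate 3.

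Wnt9a, a ligand known from joint formation, had 40.1, 54.3 and 42.4 CPM in SB2, 45.4, 19.2 and 42.4 CPM in BS6, 20.1, 22.2 and 26.7 CPM in SB4 and 28.5, 30.5 and 28.3 CPM in BS2. It was called in no comparison, with a log2 fold change of -0.98 (SE 0.14, edgeR adjusted p = 6.72e-05) in SB4 against SB2 and 0.33 (SE 0.31, edgeR adjusted p = 0.366) in BS6 against BS2. BS6 replicate 2 fell below every BS2 library, so those groups overlapped. Wnt2b and Wnt4 were also not called in either comparison of days. Wnt2b had group means of 18.7 ± 4.63 CPM in SB2, 9.80 ± 0.723 in BS6, 9.34 ± 1.70 in SB4 and 10.7 ± 0.586 in BS2 (SD, n = 3). In SB4 against SB2 both Wnt9a and Wnt2b (log2 -0.99) lay just under the fold threshold. Both passed it under upper-quartile or total-count scaling, with no filter, and without SB2 replicate 1, SB2 replicate 3 or SB4 replicate 3. Wnt2b also passed it without SB4 replicate 2 and in the single fit of 12 libraries. The values in these settings were -1.01 to -1.12. Wnt4, a ligand of kidney and ovary development, had 8.75 ± 3.16 CPM in SB2, 12.9 ± 5.09 in BS6, 15.6 ± 2.41 in SB4 and 18.9 ± 3.02 in BS2, and passed the fold threshold in SB4 against SB2 only without SB2 replicate 1 (log2 1.04 against 0.84).

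The less abundant ligands of SB2 and BS6 were Wnt6, Wnt9b, Wnt11 and Wnt16. Wnt11, a non-canonical ligand of heart and kidney development, had means of 6.10 ± 1.09 CPM in SB2, 6.91 ± 0.407 CPM in BS6, 0.140 ± 0.0842 CPM in SB4 and 0.153 ± 0.0988 CPM in BS2 (SD, n = 3), the last 2 under the level of 3 counts. Wnt16, which in bone is known from the cortex, had 3.78 ± 0.401 CPM in SB2, 2.66 ± 0.584 CPM in BS6, 1.11 ± 0.171 CPM in SB4 and 0.973 ± 0.385 CPM in BS2.

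Wnt10a, a ligand known from teeth, hair and skin, showed the largest fold among the ligands in SB4 against SB2, with 11.6, 11.3 and 10.1 CPM in SB4 and 8.61, 9.61 and 8.64 CPM in BS2, against 0.0570, 0.133 and 0.122 CPM in SB2 and 0.261, 0.181 and 0.191 CPM in BS6. Summed over libraries this was 553 counts in SB4 against 5 in SB2, a ratio of 107 with an exact 95% counting interval of 45.7 to 332, which covers counting error only. In BS6 against BS2 the log2 fold change was -5.32 (SE 0.24, edgeR adjusted p = 8.38e-06). Wnt7a, known for building synapses and brain capillaries, had 7.73, 6.52 and 7.24 CPM in SB4 and 8.61, 8.32 and 7.63 CPM in BS2. It had 0.285, 0.133 and 0.183 CPM in SB2, and in BS6 0 CPM in replicates 1 and 3 and 0.725 CPM in replicate 2, which also had the highest neuronal sum of the BS6 libraries (114 CPM, against 34.0 and 42.6). The part of neuronal RNA in that value was not tested. The log2 fold change of Wnt7a was 5.09 (SE 0.30, edgeR adjusted p = 2.11e-08) in SB4 against SB2 and -4.95 (SE 0.92, edgeR adjusted p = 0.00273) in BS6 against BS2. The latter rested on BS6 replicate 2, since without it Wnt7a had 0 counts in BS6 and 381 in BS2, at least 85.1-fold higher in BS2 against a floor of 3 counts over the group.

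Wnt7b, which acts with Wnt7a on brain vessels and is also known in bone formation (chr15:85535437-85582473, minus strand), separated BS6 from the other 3 groups. It had 12.4, 10.4 and 11.1 CPM in SB2, 0.326, 0.725 and 2.04 CPM in BS6, 17.9, 18.2 and 18.8 CPM in SB4 and 21.6, 22.6 and 21.9 CPM in BS2. No group overlapped another. The log2 fold change was -4.37 in BS6 against BS2 (SE 0.53, edgeR adjusted p = 0.000411) (-5.31 without BS6 replicate 3) but 0.70 in SB4 against SB2 (SE 0.11, edgeR adjusted p = 0.000123), which was not called. An antisense gene, AU022754, overlaps Wnt7b, and its reads cannot be told apart from those of Wnt7b if strand was not used. Of the low ligands higher in SB4 and BS2, Wnt2 had means of 4.27 ± 0.489 CPM in SB4 and 3.15 ± 0.868 CPM in BS2, against 1.28 ± 0.519 CPM in SB2 and 0.855 ± 0.728 CPM in BS6 (SD, n = 3). Its call in BS6 against BS2 (log2 -1.85, edgeR adjusted p = 0.0230) was lost without BS2 replicate 1, BS2 replicate 2 or BS6 replicate 3, where the edgeR adjusted p was 0.0533 to 0.0770, and without BS6 replicate 1 the log2 value was -2.79.

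In 3 places the members lie side by side in the genome, and in each the neighbours were on opposite sides of the division by group mean. By call, the pair of Wnt9b and Wnt3 was so in SB4 against SB2 alone. How many neighbouring pairs of all genes split in this way was not counted. Over all genes, 56.4% were called in SB4 against SB2 and 55.5% in BS6 against BS2, in both directions. Wnt6 and Wnt10a lie 6193 bases apart within chr1:74771892-74804179, Wnt9b and Wnt3 24328 bases apart within chr11:103727364-103817957, and Wnt10b and Wnt1 11706 bases apart within chr15:98770712-98793837. The first gene of each pair was higher in SB2, and the second in SB4.

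Wnt6, a ligand of surface epithelia, had 2.34 ± 0.213 CPM in SB2 and 3.36 ± 1.49 CPM in BS6, against 0.695 ± 0.0229 CPM in SB4 and 0.596 ± 0.485 CPM in BS2 (SD, n = 3), the reverse of Wnt10a beside it. It was called in both comparisons of days, at a log2 value of 2.54 in BS6 against BS2 that was 3.32 without BS2 replicate 2. Wnt1, a founding ligand of midbrain development whose variants are also known from fragile bone, had 1.12 ± 0.365 CPM in SB4 and 1.55 ± 0.502 CPM in BS2, against 0.247 ± 0.111 CPM in SB2 and 0.125 ± 0.0580 CPM in BS6, the reverse of Wnt10b. Summed counts of Wnt1 were 71 in BS2 and 6 in BS6, a ratio of 12.2 with an exact 95% counting interval of 5.32 to 34.2.

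The pair of Wnt9b, known from kidney and face development, and Wnt3, a ligand of early embryonic patterning, rested on fewer counts. Wnt9b had 2.11, 3.46 and 2.56 CPM in SB2, 1.24, 0.544 and 1.02 CPM in BS6, 0.567, 0.163 and 0.167 CPM in SB4 and 0.236, 0.640 and 0.291 CPM in BS2. It was called in SB4 against SB2 (log2 -3.22, SE 0.45, edgeR adjusted p = 3.97e-05, and -3.96 without SB4 replicate 1) and had too few counts to be tested in BS6 against BS2. In the single fit of 12 libraries, which kept it, the log2 value there was 1.28 (edgeR adjusted p = 0.0452), and it was 1.82 without BS2 replicate 2 and 1.56 without BS6 replicate 2, where it was also called. Wnt3 had 1.84, 1.85 and 1.17 CPM in SB4 and 1.24, 1.09 and 1.53 CPM in BS2. In SB2 it had 0.171, 0.666 and 0.305 CPM, and in BS6 0.130, 1.33 and 0.191 CPM, and its log2 value in SB4 against SB2 was 2.105, or 2.74 without SB2 replicate 2. The high BS6 value was that of replicate 2, and Wnt3 was called in BS6 against BS2 only without that library (log2 -2.89, edgeR adjusted p = 0.000811, against -1.14 and 0.219 with it).

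**Figure D3:**
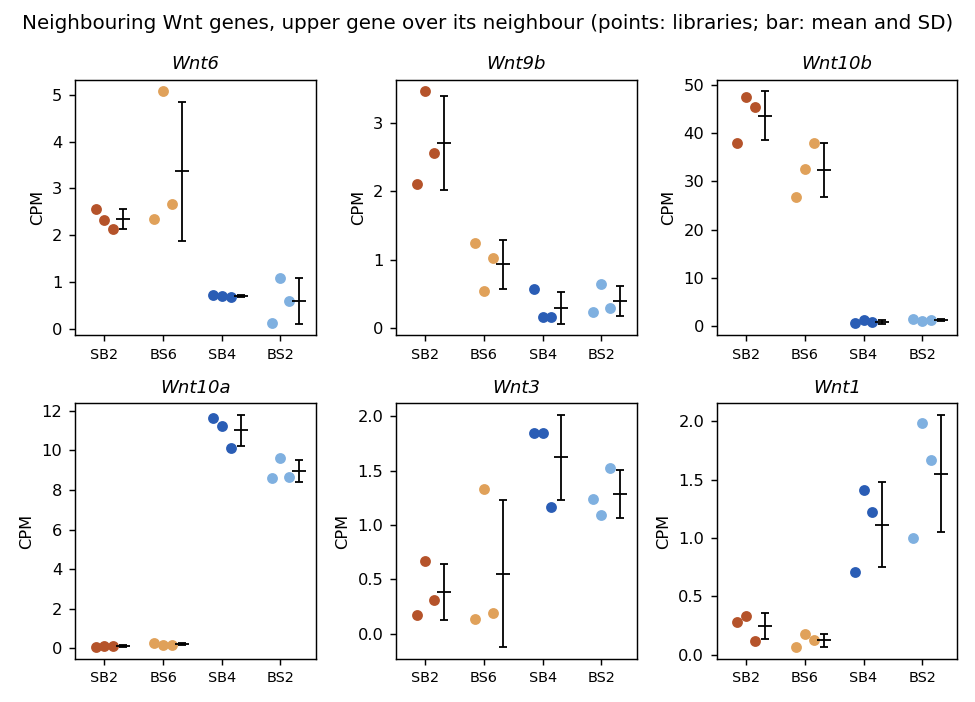
CPM of the 3 pairs of neighbouring Wnt genes in every library, 1 pair per column, with points for libraries and the mean and SD beside them for each group, each panel on its own axis. The upper genes Wnt6, Wnt9b and Wnt10b are higher in SB2 and BS6, and the lower genes Wnt10a, Wnt3 and Wnt1 are higher in SB4 and BS2, by group mean. BS6 replicate 2 is the exception among libraries, with Wnt3 at 1.33 CPM, inside the range of SB4 and BS2, and Wnt9b at 0.544 CPM, below the highest SB4 and BS2 libraries.

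Promoters of 4 of these neighbours are shown because the genes lie close together and went opposite ways. Wnt10a was not matched, and the window of Wnt3 is not printed because its RefSeq start lies inside the GENCODE gene. Each line gives the 150 bases before the RefSeq start, 5′ to 3′ on the gene's own strand, for Wnt10b (chr15:98778151-98778300, minus strand, GRCm38.p6), Wnt1 (chr15:98789707-98789856, plus strand), Wnt6 (chr1:74771742-74771891, plus strand) and Wnt9b (chr11:103749822-103749971, minus strand). Wnt11 (chr7:98834962-98835111, plus strand) is added because its window holds a core form of the TCF/LEF motif, CTTTGAT on the other strand, shown in capitals.
Wnt10b: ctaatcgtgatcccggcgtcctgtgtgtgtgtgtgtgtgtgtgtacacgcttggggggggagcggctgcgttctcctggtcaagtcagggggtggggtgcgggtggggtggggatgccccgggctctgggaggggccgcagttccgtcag
Wnt1: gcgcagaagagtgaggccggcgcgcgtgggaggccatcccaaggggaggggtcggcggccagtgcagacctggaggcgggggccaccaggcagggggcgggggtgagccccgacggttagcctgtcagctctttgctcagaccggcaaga
Wnt6: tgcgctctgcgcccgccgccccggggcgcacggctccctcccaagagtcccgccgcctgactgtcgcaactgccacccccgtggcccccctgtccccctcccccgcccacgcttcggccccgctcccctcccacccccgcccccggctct
Wnt9b: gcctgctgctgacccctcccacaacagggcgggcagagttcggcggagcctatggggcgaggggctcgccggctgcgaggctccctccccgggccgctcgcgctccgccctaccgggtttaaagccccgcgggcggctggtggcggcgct
Wnt11: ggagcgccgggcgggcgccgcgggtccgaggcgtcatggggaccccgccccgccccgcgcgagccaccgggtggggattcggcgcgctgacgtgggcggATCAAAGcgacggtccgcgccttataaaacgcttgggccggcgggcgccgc
In the RefSeq table, 33 of the 50 members had a promoter window of 250 bases before and 50 after the start, 41 windows in all. CTTTGAT or CTTTGTT on either strand, core forms of the TCF/LEF motif that share the letters CTTTG, was in 12.2% of those windows, that of Wnt3 included, and in 9.33% of 32851 windows of all genes. TATAAA on the gene's strand was in 7.32% and 8.32%. The median share of G and C was 67.3% in the members' windows and 52.7% over all. A match of letters is a description of the window and not of binding.

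The frizzled receptors bind the ligands through a cysteine-rich domain outside the cell. In SB4 against SB2 all 10 were tested, 7 were lower in SB4 (Fzd1, Fzd2, Fzd4, Fzd5, Fzd6, Fzd7 and Fzd8) and Fzd3 was higher. In BS6 against BS2 the same 7 were higher in BS6, and Fzd3 and Fzd10 were lower. Fzd9 was called in neither, with means of 4.75 ± 0.599 CPM in SB2, 3.56 ± 0.668 in BS6, 4.13 ± 0.158 in SB4 and 3.58 ± 0.282 in BS2 (SD, n = 3).

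Fzd3, known for guiding axons (chr14:65192449-65262463, minus strand), had 182, 177 and 206 CPM in SB4 and 200, 193 and 199 CPM in BS2, but 12.02, 12.2 and 13.1 CPM in SB2 and 11.7, 10.03 and 13.7 CPM in BS6. The log2 fold change was 3.92 (SE 0.09, edgeR adjusted p = 6.85e-12) in SB4 against SB2 and -4.02 (SE 0.14, edgeR adjusted p = 4.11e-06) in BS6 against BS2. It was the only frizzled called higher in both SB4 and BS2. Fzd1, a canonical receptor (chr5:4753839-4758035, minus strand), had 222, 209 and 221 CPM in SB2 and 137, 87.3 and 123 CPM in BS6, against 11.1, 9.62 and 10.97 CPM in SB4 and 11.7, 11.7 and 12.4 CPM in BS2. Its SB2 libraries lay above its BS6 libraries, and both above all SB4 and BS2 libraries. Its log2 fold change was -4.36 (SE 0.08, edgeR adjusted p = 2.28e-12) in SB4 against SB2 and 3.31 (SE 0.18, edgeR adjusted p = 1.57e-05) in BS6 against BS2.

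Fzd7, known from stem and progenitor cells, had 88.9, 93.6 and 92.9 CPM in SB2, 79.6, 101 and 134 CPM in BS6, 3.19, 3.86 and 4.51 CPM in SB4 and 4.07, 7.43 and 5.96 CPM in BS2. Fzd4, the receptor for norrin in vessels, had 53.1, 49.3 and 45.7 CPM in SB2, 60.4, 66.4 and 60.3 CPM in BS6, 8.80, 12.2 and 12.4 CPM in SB4 and 11.1, 12.4 and 13.9 CPM in BS2. Summed markers of endothelial cells, the cells that line vessels, were 724 to 769 CPM in SB2 and 705 to 908 CPM in BS6, against 149 to 189 CPM in SB4 and 113 to 172 CPM in BS2, and their part in the Fzd4 difference was not tested. Among the other frizzleds called in SB4 against SB2, Fzd5 differed most, with a mean of 47.6 ± 5.27 CPM in SB2 and 1.36 ± 0.171 CPM in SB4 (log2 -5.13, SE 0.15, edgeR adjusted p = 4.75e-11), and Fzd6 least, with 36.9 ± 1.52 CPM and 12.7 ± 1.78 CPM (SD, n = 3). Fzd2 and Fzd8 lay between them. Fzd10 was low throughout, with means of 2.05 ± 1.04 CPM in SB2, 1.66 ± 0.219 CPM in BS6, 3.50 ± 0.836 CPM in SB4 and 4.03 ± 0.603 CPM in BS2, and without SB2 replicate 1 it was also called in SB4 against SB2 (log2 1.18, edgeR adjusted p = 0.0132, against 0.77 and 0.0675 with it).

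Because a longer transcript gathers more reads, levels are set between genes only per kilobase of exon. On that scale the frizzleds together had 116 ± 2.91 CPM per kilobase in SB2, 97.3 ± 12.3 in BS6, 27.6 ± 1.93 in SB4 and 30.01 ± 0.662 in BS2 (SD, n = 3). The make-up changed as well. Fzd3 had a median share of 53.9% of the summed frizzled level per kilobase in SB4 and 51.7% in BS2, and 0.843% and 0.934% in SB2 and BS6. Fzd1 had 44.5% in SB2 and 27.1% in BS6, against 8.77% and 9.48% in SB4 and BS2.

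**Figure D4:**
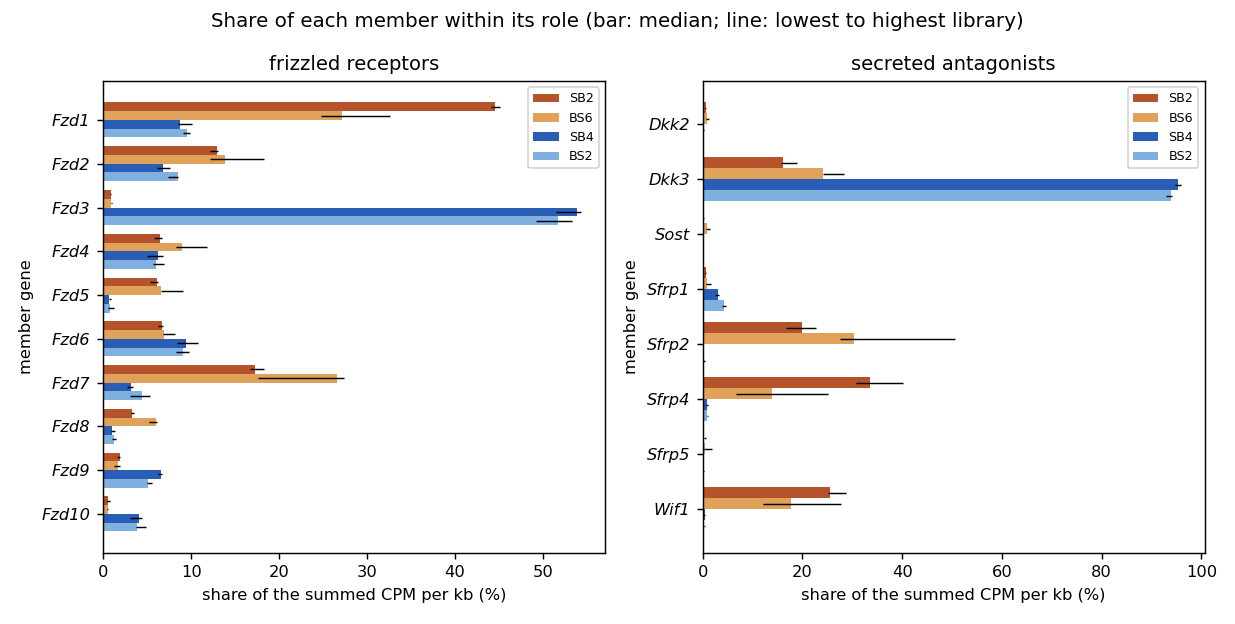
Share of each frizzled receptor (left) and secreted antagonist (right) in the summed CPM per kilobase of its role, in percent, as the median of each group's 3 libraries (bars) and the lowest to the highest library (lines). Fzd3 is the longest bar of the frizzleds in SB4 and BS2 and Fzd1 in SB2 and BS6. Dkk3 takes 95.4% and 93.8% of the summed level of the member antagonists in SB4 and BS2.

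Of the co-receptors, Lrp5 is known from bone mass, which its variants raise or lower, and Lrp6 is used in most tissues. Lrp5 (chr19:3584828-3686564, minus strand) had 121, 128 and 128 CPM in SB2, 220, 185 and 321 CPM in BS6, 7.73, 10.7 and 9.08 CPM in SB4 and 6.84, 8.90 and 8.35 CPM in BS2. BS6 stood above SB2, and both stood above SB4 and BS2, without overlap. The fold was 13.6 between SB2 and SB4 (log2 -3.76, SE 0.10, edgeR adjusted p = 3.41e-11) and 30.9 between BS6 and BS2 (log2 4.95, SE 0.26, edgeR adjusted p = 1.29e-05). Lrp6 had 114, 105 and 102 CPM in SB2, 107, 95.6 and 135 CPM in BS6, 57.5, 57.5 and 62.3 CPM in SB4 and 66.1, 61.2 and 64.1 CPM in BS2. Its ranges did not overlap either, but at 1.81-fold in each comparison it stayed under the fold threshold (log2 -0.85 and 0.86, edgeR adjusted p = 4.85e-07 and 0.00137). Per kilobase, Lrp5 made up a median of 63.1% of the co-receptor level in SB2 and 74.2% in BS6, and Lrp6 made up 83.0% in SB4 and 84.5% in BS2.

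Among R-spondins, which strengthen a Wnt signal without starting one, Rspo1 and Rspo2 were the members higher in SB4 and BS2. Rspo1 had 17.8, 20.4 and 18.9 CPM in SB4 and 15.7, 19.1 and 16.3 CPM in BS2, against 2.79, 2.46 and 2.63 CPM in SB2 and 2.41, 3.08 and 3.44 CPM in BS6. Its log2 fold change was 2.86 (SE 0.14, edgeR adjusted p = 4.56e-09) in SB4 against SB2 and -2.48 (SE 0.19, edgeR adjusted p = 4.85e-05) in BS6 against BS2. Rspo2 had means of 13.9 ± 3.08 CPM in SB4, 12.7 ± 1.64 CPM in BS2, 3.06 ± 0.460 CPM in SB2 and 4.11 ± 2.13 CPM in BS6 (SD, n = 3). Rspo3, which is known from vessels and bone, went the other way, with 19.7, 31.0 and 25.9 CPM in BS6, 18.6, 15.4 and 17.3 CPM in SB2, 12.3, 12.9 and 12.9 CPM in BS2 and 9.79, 12.4 and 12.4 CPM in SB4. It was called in BS6 against BS2 (log2 1.05, SE 0.19, edgeR adjusted p = 0.00211), and without BS6 replicate 2 the log2 value was 0.88, under the threshold.

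Lgr4, Lgr5 and Lgr6 are the receptors of the R-spondins. Lgr4 had 37.8, 38.5 and 36.9 CPM in SB2, 25.5, 24.9 and 40.5 CPM in BS6, 24.3, 29.7 and 30.5 CPM in SB4 and 25.2, 27.5 and 28.8 CPM in BS2, and was called nowhere. Lgr6 had 16.7, 15.1 and 14.7 CPM in SB2, 8.93, 5.44 and 13.0 CPM in BS6, 7.24, 6.25 and 9.13 CPM in SB4 and 7.85, 5.96 and 5.67 CPM in BS2. It was called in SB4 against SB2 at a log2 value of -1.03 (SE 0.16, edgeR adjusted p = 7.99e-05), a call that was lost when SB2 replicate 1, SB4 replicate 1 or SB4 replicate 2 was left out and the value was -0.886 to -0.995. Lgr5, a marker of stem cells in several epithelia, had 20.4 CPM in BS6 replicate 1 but 1.45 and 3.31 CPM in the other BS6 libraries, with means of 4.91 ± 0.624 CPM in SB2, 3.07 ± 0.214 CPM in SB4 and 3.19 ± 0.299 CPM in BS2 (SD, n = 3). Both the highest and the lowest of its 12 values were in BS6.

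The secreted antagonists held the largest folds of the members tested in the comparisons of days. In SB4 against SB2, 6 of 8 were lower in SB4 (Dkk2, Sfrp2, Sfrp4, Sfrp5, Sost and Wif1) and none passed as higher. In BS6 against BS2 those 6 were higher in BS6, and Sfrp1 was lower. These counts cover only the antagonists matched by symbol. Inhibitors outside the members were split, with Frzb among those higher in SB4, and are given further below.

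Sfrp4, a frizzled-like decoy known from cortical bone (chr13:19623104-19632994, plus strand), had 633, 621 and 644 CPM in SB2 and 119, 146 and 193 CPM in BS6, against 4.54, 5.11 and 5.57 CPM in SB4 and 4.84, 5.44 and 4.94 CPM in BS2. SB2 stood above BS6, and BS6 above the others. The log2 fold change was -6.95 (SE 0.10, edgeR adjusted p = 1.02e-12) in SB4 against SB2 and 4.95 (SE 0.22, edgeR adjusted p = 7.41e-06) in BS6 against BS2. Wif1, which binds Wnt proteins directly and is made by osteoblasts (chr10:121033960-121100650, plus strand), had 229, 336 and 285 CPM in SB2, 127, 60.2 and 223 CPM in BS6, 1.63, 0.761 and 1.23 CPM in SB4 and 0.885, 1.09 and 1.74 CPM in BS2. Its fold was 239 between SB2 and SB4 (log2 -7.90, SE 0.25, edgeR adjusted p = 2.88e-08) and 114 between BS6 and BS2 (log2 6.83, SE 0.62, edgeR adjusted p = 0.000110).

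Sfrp2, a decoy of fibroblasts and periosteum (chr3:83766321-83774316, plus strand), had 136, 237 and 197 CPM in SB2, 469, 82.8 and 215 CPM in BS6, 0.993, 0.924 and 1.00 CPM in SB4 and 1.00, 1.15 and 0.436 CPM in BS2. The fold was 193 between SB2 and SB4 (log2 -7.60, SE 0.32, edgeR adjusted p = 1.16e-06) and 296 between BS6 and BS2 (log2 8.21, SE 0.85, edgeR adjusted p = 0.000200), or 7.43 on the log2 scale without BS6 replicate 1. Within BS6 its order over libraries was that of the summed fibroblast and periosteum markers, which were 32735, 5218 and 21343 CPM in replicates 1, 2 and 3, and the part of these cells in its level was not tested. Sost, the product of osteocytes, which are the cells buried in bone matrix (chr11:101962458-101967015, minus strand), had 0.683, 1.13 and 2.01 CPM in SB2 and 7.37, 1.81 and 10.1 CPM in BS6. It was at 0.142, 0.0544 and 0.223 CPM in SB4, and at 0, 0.128 and 0 CPM in BS2. Summed over libraries Sost had 301 counts in BS6 and 2 in BS2, a ratio of 146 with an exact 95% counting interval of 40.2 to 1215. Without BS2 replicate 2, which held both counts of that group, it was at least 64.7-fold higher in BS6 against a floor of 3 counts over the group, and without any other library the fitted log2 value was 6.42 to 7.45.

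Dkk3, a Dkk-family protein of unsettled action on Wnt signalling (chr7:112116017-112159057, minus strand), was abundant in every library, with 204, 254 and 293 CPM in SB2, 411, 113 and 268 CPM in BS6, 513, 493 and 400 CPM in SB4 and 428, 378 and 438 CPM in BS2. It was not called in SB4 against SB2 (log2 0.91, SE 0.14, edgeR adjusted p = 0.000322) or in BS6 against BS2 (log2 -0.62, SE 0.43, edgeR adjusted p = 0.229). Its ranges did not overlap in SB4 against SB2, and in BS6 against BS2 they overlapped through BS6 replicate 1. The log2 value in BS6 against BS2 was -1.08 without BS6 replicate 1, where it was called (edgeR adjusted p = 0.0420), and in SB4 against SB2 it was 1.04 without SB2 replicate 3 and 1.02 without SB4 replicate 3, where it was called as well. Dkk2, a ligand of the co-receptors, had means of 10.1 ± 0.647 CPM in SB2, 8.97 ± 2.01 in BS6, 1.10 ± 0.215 in SB4 and 1.23 ± 0.418 in BS2 (SD, n = 3). Sfrp5 was low, at 4.10 ± 2.51 CPM in SB2 and 3.41 ± 1.31 CPM in BS6, with 0.221 ± 0.198 CPM in SB4 and 0.571 ± 0.189 CPM in BS2. Its log2 value in SB4 against SB2 was -4.17, and it ran from -4.89 without SB4 replicate 2 to -3.55 without SB4 replicate 3, with a value near the latter without SB2 replicate 2.

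Per kilobase, Dkk3 made up a median of 95.4% of the summed level of the member antagonists in SB4 and 93.8% in BS2, but 16.1% in SB2 and 24.2% in BS6. Inhibitors outside the members, such as Frzb, are not in that sum. In SB2 the highest members per kilobase were Sfrp4 with 151, Wif1 with 117 and Sfrp2 with 88.3 CPM per kilobase. In BS6 Sfrp2 had 119, Dkk3 78.6, Wif1 56.4 and Sfrp4 36.5 CPM per kilobase, so the order differed between these groups. The summed antagonist level was 439 ± 55.6 CPM per kilobase in SB2, 300 ± 148 in BS6, 146 ± 18.0 in SB4 and 132 ± 9.40 in BS2 (SD, n = 3), with BS6 replicate 2 at 139.

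Inside the cell, Axin1 and Axin2 are scaffolds of the complex that degrades beta-catenin, and Tcf7, Tcf7l1, Tcf7l2 and Lef1 are its partners on DNA. Tcf7 had 54.6, 50.3 and 57.0 CPM in SB2, 23.0, 23.7 and 53.8 CPM in BS6, 3.33, 5.33 and 4.40 CPM in SB4 and 3.48, 4.67 and 4.50 CPM in BS2. Tcf7l1 had 21.3, 21.8 and 20.9 CPM in SB2, 25.2, 22.9 and 33.9 CPM in BS6, 1.70, 2.07 and 2.17 CPM in SB4 and 2.18, 3.07 and 1.38 CPM in BS2. Both, and Tcf7l2 with means of 24.7 ± 2.03 CPM in SB2, 24.1 ± 1.22 in BS6, 3.73 ± 0.711 in SB4 and 4.11 ± 0.482 in BS2 (SD, n = 3), were called in both comparisons of days. Tcf7 is also known from T cells, and 3 of 5 T cell markers in the table summed to 5.30 to 6.86 CPM in SB2 and 10.1 to 13.4 CPM in BS6, against 1.06 to 1.25 CPM in SB4 and 0.436 to 1.12 CPM in BS2. Their part in the Tcf7 level was not tested.

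Axin2, itself a target that canonical signalling raises, had its higher values where most members had their lower ones. It had 26.2, 26.9 and 29.0 CPM in SB4 and 26.0, 25.7 and 26.5 CPM in BS2, against 11.7, 16.6 and 16.1 CPM in SB2 and 17.5, 11.7 and 13.8 CPM in BS6, with no overlap. The log2 difference was 0.90 (SE 0.13, edgeR adjusted p = 6.23e-05) in SB4 against SB2 and -0.82 (SE 0.17, edgeR adjusted p = 0.00369) in BS6 against BS2, past the p threshold and under the fold threshold in both. Axin1 had 41.2, 47.2 and 47.7 CPM in SB2, 48.6, 56.4 and 52.8 CPM in BS6, 27.4, 26.5 and 29.1 CPM in SB4 and 28.0, 25.2 and 22.8 CPM in BS2. It was called in BS6 against BS2 (log2 1.09, SE 0.12, edgeR adjusted p = 0.000276) and not in SB4 against SB2 (log2 -0.71, SE 0.09, edgeR adjusted p = 1.68e-05). Lef1 was low in all 4 groups, with means of 2.73 ± 1.01 CPM in SB2, 3.12 ± 0.257 in BS6, 4.66 ± 0.452 in SB4 and 3.54 ± 0.927 in BS2 (SD, n = 3).

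BS6 and SB2 both held bone transcripts, and comparing them sets day 6 after brain injury in libraries labelled bone against day 2 after skull injury in libraries labelled brain. Of 44 members tested, none was higher in BS6 and 2, Sfrp4 and Wnt7b, were lower. Over all 16329 genes tested, 1.86% were called, 1.11% higher and 0.741% lower. At an unadjusted p under 0.05 there were 13 members, beside 29.2% of all genes, and DESeq2 called 4 (Sfrp4, Wnt7b, Wnt9b and Sost), beside 1058 of all genes. Wnt1, Wnt3, Wnt7a and Wnt10a had too few counts to be tested.

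Sfrp4 was 4.10-fold lower in BS6 than in SB2 (log2 -2.04, SE 0.20, edgeR adjusted p = 0.0194), with all 3 BS6 libraries below all 3 SB2 libraries, where 38.1% of all genes had ranges without overlap. Wnt7b was 10.8-fold lower (log2 -3.43, SE 0.57, edgeR adjusted p = 0.0346), again without overlap. Neither call was kept when any 1 SB2 library was left out, where the edgeR adjusted p was 0.0992 to 0.181 for Sfrp4 and 0.114 to 0.182 for Wnt7b, and no gene of any kind was then called. Over all libraries left out in turn the log2 values ran from -2.24 to -1.88 for Sfrp4 and from -4.37 to -3.01 for Wnt7b, the -4.37 without BS6 replicate 3, where Wnt7b was called. Wnt7b also lost its call without BS6 replicate 1 (edgeR adjusted p = 0.0549).

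Lrp5 and Fzd1 passed the p threshold only, as 5.71% of all genes passed it with or without the fold. Lrp5 was 1.94-fold higher in BS6 (log2 0.96, SE 0.20, edgeR adjusted p = 0.0492) and Fzd1 1.86-fold lower (log2 -0.90, SE 0.17, edgeR adjusted p = 0.0407). Sost was 5.04-fold higher in BS6 and was not called with all libraries (log2 2.33, SE 0.70, edgeR adjusted p = 0.0953). Without BS6 replicate 2, which had the lowest Sost of its group at 1.81 CPM, it was called with a log2 value of 2.78 (edgeR adjusted p = 0.00442), as were Lrp5 at 1.11 (0.00466) and Wnt9b at -1.25 (0.0420). Without BS6 replicate 3 the call of Tcf7 was gained, at -1.19 (edgeR adjusted p = 0.0476).

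Several cell type sums differed between these groups. Skeletal muscle markers summed to 196 to 1562 CPM in SB2 and 44.5 to 330 CPM in BS6, and neutrophil lineage markers to 537 to 995 CPM and 923 to 15372 CPM, ranges that overlapped. Sums without overlap included erythroid markers, at 1241 to 4499 CPM in SB2 and 7415 to 12165 CPM in BS6. They also included B cell markers (17.3 to 27.4 CPM and 28.1 to 60.7 CPM), T cell markers (5.30 to 6.86 CPM and 10.1 to 13.4 CPM) and, higher in SB2, chondrocyte markers (119 to 125 CPM and 42.1 to 102 CPM). The osteocyte markers other than Sost, 3 of 4 in the table, summed to 146 to 232 CPM in SB2 and 160 to 255 CPM in BS6, so the ranges of the sum overlapped. Those of Sost overlapped only through BS6 replicate 2. Singly, Phex was higher in BS6 like Sost, with 60.2, 40.8 and 90.4 CPM against 30.2, 28.1 and 34.6 CPM in SB2, without overlap. Dmp1, which made up most of the sum, and Fgf23 overlapped. The part of these cell types in the member differences was not tested.

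**Figure D5:**
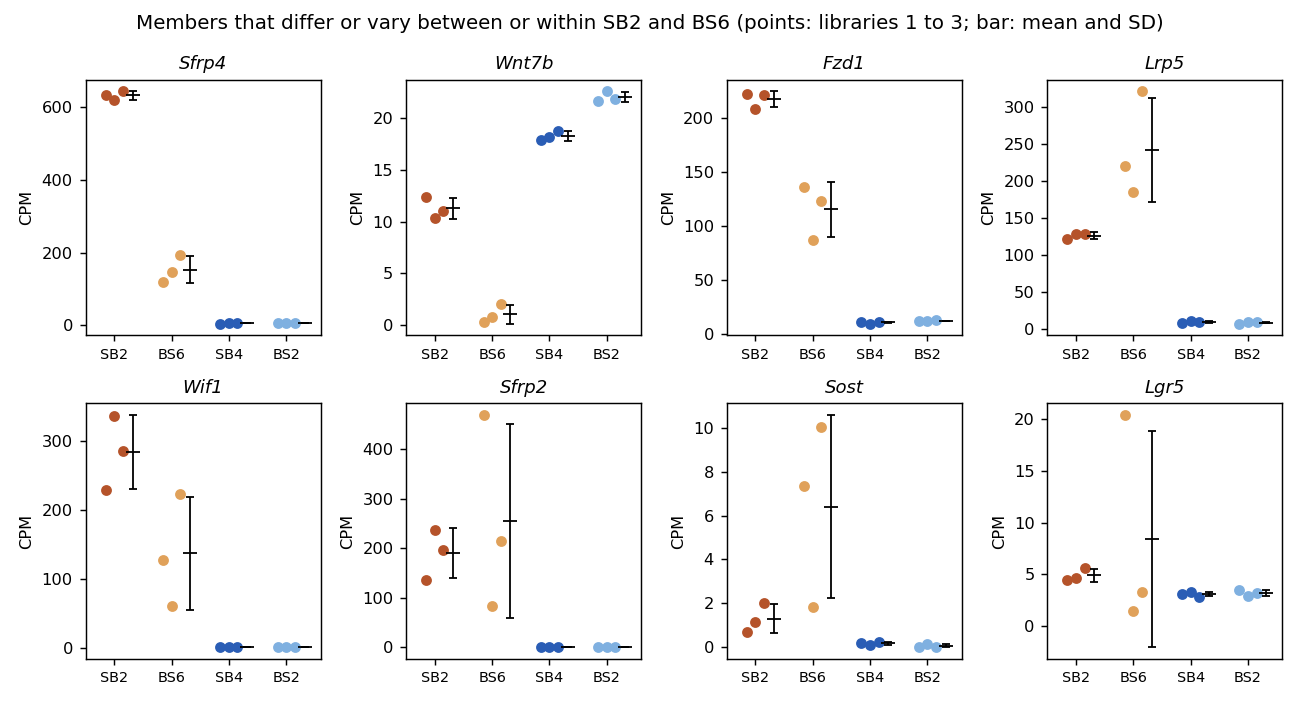
CPM in every library for members that separate or spread within SB2 and BS6, with points for libraries and the mean and SD for each group, each panel on its own axis. Sfrp4 and Wnt7b are lower in all 3 BS6 libraries than in all 3 SB2 libraries, and the BS6 points of Sfrp2 and Sost are spread wide, with replicate 2 lowest.

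SB4 and BS2 both held brain transcripts. Of 44 members tested between them, edgeR called none, against 0.147% of all 16278 genes tested, 0.086% higher and 0.0614% lower. At an unadjusted p under 0.05 there were 8 members, beside 11.9% of all genes, and DESeq2 called 0, beside 43 of all genes. Sfrp1, a secreted decoy, passed the p threshold at a small fold (log2 -0.43, SE 0.09, edgeR adjusted p = 0.0311), where 0.94% of all genes passed it at any fold. It had 17.3, 20.1 and 17.5 CPM in SB4 and 23.2, 24.5 and 25.5 CPM in BS2. Its ranges did not overlap, which held for 16.5% of all genes tested. In SB2 it had 11.1, 11.7 and 14.8 CPM and in BS6 12.2, 10.3 and 12.9 CPM, and its call in BS6 against BS2 (log2 -1.01, SE 0.13, edgeR adjusted p = 0.000457) was lost without BS2 replicate 3 or BS6 replicate 2, at -0.99 and -0.92. Log2 differences of the 44 members between SB4 and BS2 ran from -0.60 (Fzd7, SE 0.21, edgeR adjusted p = 0.238) to 0.48 (Wnt5b, SE 0.41, edgeR adjusted p = 0.701).

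Beyond the members, 66 of 69 listed symbols of Wnt secretion, other receptors, other inhibitors, the cytoplasmic and nuclear steps, planar cell polarity and transcriptional targets were in the table. Cer1, Ccn4 and Ccn5 were not, but Ccn4 and Ccn5 are the newer symbols of Wisp1 and Wisp2, which were. In SB4 against SB2, 17 were higher in SB4 and 24 lower of 64 tested, and in BS6 against BS2, 27 were higher in BS6 and 16 lower of 65. These are 64.1% and 66.2% of the genes tested, beside 56.4% and 55.5% over all genes, and the counts of the single lists below stand beside the same background. In BS6 against SB2 none of 64 was called by edgeR, and in SB4 against BS2 none of 61, with Ccnd1 and Wls the only ones past the p threshold in the one and the other.

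Of the 11 targets tested, 8 were lower in SB4 than in SB2 and 0 higher, and in BS6 against BS2 8 were higher and 0 lower. Wisp1, a matricellular protein of osteoblasts, had means of 284 CPM in SB2 and 223 CPM in BS6, against 2.19 CPM in SB4 and 2.70 CPM in BS2. Wisp2, Cd44 and Jag1 were among the others, and each is also known from other pathways and cell types. Of the genes that like Axin2 feed back on Wnt signalling, Notum was called in both comparisons (log2 -1.58 in SB4 against SB2 and 1.64 in BS6 against BS2), and Znrf3, Rnf43 and Nkd1 were not called. Znrf3 had 13.7 CPM in SB2, 12.2 CPM in BS6, 14.9 CPM in SB4 and 14.9 CPM in BS2.

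Among the other receptors, 6 of 9 were lower in SB4 and 1 higher, and 6 were higher in BS6 and 1 lower. The 1 that went the other way was Kremen2 each time (log2 3.01 in SB4 against SB2 and -1.72 in BS6 against BS2), a gene with group means under 1 CPM. Ror2, a receptor for Wnt5a, had 35.4 CPM in SB2 and 25.7 CPM in BS6, against 0.382 CPM in SB4 and 0.745 CPM in BS2. Kremen1, which works with Dkk proteins, had 167 and 133 CPM against 23.6 and 22.0 CPM in the same order. The Wnt carrier Wls had 165 CPM in SB2, 149 CPM in BS6, 40.7 CPM in SB4 and 50.5 CPM in BS2.

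Of 10 planar cell polarity genes, 5 were higher and 1 lower in SB4 against SB2, and 1 was higher and 5 lower in BS6 against BS2. Celsr2, an adhesion receptor of neurons, had 312 CPM in SB4 and 303 CPM in BS2, against 4.82 CPM in SB2 and 7.22 CPM in BS6. Inhibitors outside the member list were split, with 4 higher and 5 lower of 11 in SB4 against SB2. Frzb had 30.7 CPM in SB4 and 25.5 CPM in BS2, against 2.12 CPM in SB2 and 3.01 CPM in BS6. It was called in both comparisons of days (log2 3.85 in SB4 against SB2 and -3.04 in BS6 against BS2). Dkkl1, a distant relative of the Dkk proteins, had 27.0 CPM in SB4 and 25.6 CPM in BS2, against 0.267 CPM in SB2 and 1.05 CPM in BS6, while the antagonist Draxin had 12.7 CPM in SB2 and 7.80 CPM in BS6, against 0.304 CPM in SB4 and 0.269 CPM in BS2. Of the 14 cytoplasmic genes, 6 were higher in SB4 than in SB2 (Gsk3a, Gsk3b, Apc2, Csnk1e, Btrc and Tnks) and 1 lower, and 1 was higher and 5 lower in BS6 against BS2. The exception was beta-catenin itself (Ctnnb1), which had 627 CPM in SB2, 529 CPM in BS6, 211 CPM in SB4 and 224 CPM in BS2, and was called in both comparisons of days. Of the 10 nuclear genes, 1 was higher and 2 lower in SB4 against SB2, and 4 were higher and 1 lower in BS6 against BS2.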

How the data were processed

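The authors cleaned reads with fastp, mapped them to mm10 with HISAT2 2.1.0 (named in the submitters' processing notes) and deposited a table of raw read counts per gene symbol for 12 libraries, 3 biological replicates in each of 4 groups. The paper used ComBat_seq to remove batch effects when it joined earlier data, before its other analyses. Whether the deposited counts precede that step is not given in the sources used here, nor are the counting program, the annotation and the use of strand.

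Each pair of groups had its own robust quasi-likelihood fit (edgeR 4.0.16, R 4.3.3) on counts kept by filterByExpr (minimum 10) and scaled by TMM, and p-values were adjusted by Benjamini-Hochberg over all genes kept. A call needed an adjusted p under 0.05 and a log2 fold change over 1 in size. The standard errors (SE) given were worked back from the test, as the size of the log2 fold change over the square root of its F statistic. They are approximate. The fit was tested on simulated counts in which few genes changed, evenly up and down, with the same spread for all genes. That setting does not show how the fit performs where most genes differ or where replicates vary as in BS6. CPM use TMM factors over all 12 libraries. Alternatives were DESeq2 1.42.0, other scalings and filters, a replicate block, a single fit and leaving out each library. Exon lengths and positions came from GENCODE M21 on GRCm38, and promoters from RefSeq.

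Named with every library were the 4 members of each role with the highest group mean and any called in BS6 against SB2 or SB4 against BS2, and with group means the others called by day. The members and lists were chosen with earlier results of these data known. Library totals were 14126082 to 18972654 counts. In 20 of 50 members the span overlaps another annotated gene, so their reads may not be told apart.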

Additional observations from a re-analysis of the deposited data

Results flagged for a closer look

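The change from SB2 to SB4 differed from the change from BS2 to BS6 for 45 members, and each of these is listed because that difference was tested by itself, as an edgeR quasi-likelihood contrast in a single fit of the 12 libraries with a Benjamini-Hochberg adjusted p under 0.05. Over all genes tested 84.9% passed the same test, and day and tissue content cannot be told apart in either change. Written out, the contrast sets SB4 and BS2 together against SB2 and BS6. A difference between brain and bone RNA is enough to pass it, so it does not single out a change over time. Values are the first change minus the second on the log2 scale, so a negative value means that the first change was the lower of the 2. It does not mean a rise in BS6 for each gene, since Wnt2b had a log2 value of -0.08 in BS6 against BS2.

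Among the ligands, the value was negative for Wnt2b (-0.92), Wnt5a (-2.92), Wnt5b (-9.62), Wnt6 (-4.30), Wnt9a (-1.32), Wnt9b (-4.50), Wnt10b (-10.05), Wnt11 (-10.87) and Wnt16 (-3.26), and positive for Wnt1 (5.66), Wnt2 (3.56), Wnt3 (3.23), Wnt4 (1.34), Wnt7a (10.03), Wnt7b (5.06) and Wnt10a (11.96). Among the frizzled receptors, the value was negative for Fzd1 (-7.69), Fzd2 (-5.57), Fzd4 (-4.51), Fzd5 (-10.00), Fzd6 (-2.97), Fzd7 (-8.78) and Fzd8 (-7.59), and positive for Fzd3 (7.94) and Fzd10 (1.99). Among the co-receptors, the value was negative for Lrp5 (-8.73) and Lrp6 (-1.72). Among the R-spondins and Lgr receptors, the value was negative for Lgr4 (-0.62), Lgr6 (-1.57) and Rspo3 (-1.62), and positive for Rspo1 (5.32) and Rspo2 (3.76). Among the secreted antagonists, the value was negative for Dkk2 (-6.07), Sfrp2 (-15.81), Sfrp4 (-11.91), Sfrp5 (-6.80), Sost (-10.14) and Wif1 (-14.74), and positive for Dkk3 (1.52) and Sfrp1 (1.55). Among the intracellular members, the value was negative for Axin1 (-1.81), Tcf7 (-6.66), Tcf7l1 (-7.08) and Tcf7l2 (-5.31), and positive for Axin2 (1.71). 

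For Wnt10a, Wnt1 and Sost, whose counts were at most 3 in every library of a group, the fitted value depends on the prior count of the fit and is no measure of size.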

How the results depend on the processing

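No member that was called changed direction under any alternative run. With at least 10 counts in every library, which removes the genes absent from a group before testing, the members higher in SB4 than in SB2 went from 8 to 4, those lower in BS6 than in BS2 from 10 to 5, and those lower in BS6 than in SB2 from 2 to 1. By the adjusted p alone, 14 members were higher in SB4 than in SB2, 1 was higher in BS6 than in SB2 and 1 lower in SB4 than in BS2. DESeq2 and the single fit of 12 libraries each called 1 member higher in BS6 than in SB2 (Sost). Leaving out each library in turn gave 8 to 10 members higher and 24 to 27 lower in SB4 against SB2, 24 to 26 higher and 9 to 11 lower in BS6 against BS2, 0 to 2 higher and 0 to 3 lower in BS6 against SB2, and 44 to 47 with a difference of both changes. Over all genes, BS6 against SB2 had 303 calls, 1058 by DESeq2, 1273 in the single fit and 667 without BS6 replicate 2, and total counts without further scaling turned its split from 182 higher and 121 lower to 125 and 163. Upper-quartile factors moved the median of all genes in SB4 against SB2 from -0.01 to -0.14.

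Replicate numbers did not pair the samples, since correlations of same-numbered deviations were -0.116 to 0.0859. With the replicate number as a block, no member was lower in BS6 than in SB2 (0, against 2 without it; edgeR adjusted p = 0.0995 for Sfrp4 and 0.1004 for Wnt7b) and no gene of any kind was called there. At 3 libraries per group and 0.163 to 0.218 CPM per 3 counts, differences of Rspo4 and Wnt8a were not detectable.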
